A study of Mus musculus with 8 samples.

Results

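AP-1 is a family of transcription factors, and 10 of its genes were followed here in mouse small intestine and in small intestinal adenoma: Fos, Fosb, Fosl1, Fosl2, Jun, Junb, Jund, Atf3, Maff and Batf. They were taken by gene symbol from a table of 39179 genes, and all 10 were in the table and passed the filter on low counts, which left 18345 genes for testing. RNA came from whole tissue of 8 libraries on an inbred C57BL6/J background, each from mice with VilCreER, a Cre recombinase under the villin promoter that acts in intestinal epithelium after tamoxifen. The 3 wild-type libraries were small intestine of VilCreER+ mice, and the 5 adenoma libraries were adenomas, benign epithelial tumours, of VilCreER+ APCfl/+ mice, which carry 1 floxed and 1 normal allele of Apc. Both groups are labelled as having undergone tamoxifen-induced recombination in the animal, the series text calls the adenoma mice aged, and no age in weeks is stated there. Whether each library stands for its own mouse is not stated, and p-values here reflect just the spread among samples, which may be technical.

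AP-1 proteins carry a basic region that touches DNA and a leucine zipper through which they pair. Jun proteins pair with each other or with Fos proteins, and the pairs bind a short motif, TGACTCA, or its longer relative TGACGTCA. Fos, Fosb, Jun and Atf3 belong to the immediate-early genes, which growth factors, wounding and stress switch on within minutes through MAP kinases. Fosl1 and Fosl2 usually follow later, Jund is expressed steadily in many resting cells, Maff is a small Maf protein without an activation domain of its own, and Batf is an AP-1 partner best known from lymphocytes. In intestinal epithelium, phosphorylated Jun is known as a promoter of tumours driven by loss of Apc.

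Several libraries differed in more than their group. Total counts ran from 18040301 to 28343915, and 4 genes that collect ribosomal RNA reads took 10.7% to 23.5% of them, with 23.1% in wild type 2. Adenoma 2 had 245.2 CPM (the count scaled by library size) of the hindgut gene Hoxb13 against at most 0.893 CPM elsewhere, and 0.469 CPM of Gata4 against 68.3 to 84.3 CPM in the other adenomas, which goes against its label of small intestine. Wild type 1 and adenoma 5 held pancreatic RNA, with summed pancreatic markers of 721 and 508 CPM where the remaining libraries had 3.42 CPM or less. Adenomas 2 to 5 had Xist at 432 to 760 CPM and nearly no Ddx3y, which is Y-linked, whereas adenoma 1 and the wild-type libraries had the male pattern. Apc itself ran from 191 to 211 CPM among wild-type libraries and between 132 and 159 CPM among adenomas, which is a log2 change of -0.45 ± 0.09 (SE; edgeR quasi-likelihood test, adjusted p = 0.00374). In the 8 whole-tissue libraries, more cells of a type and more RNA per cell cannot be told apart.

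Of the 10 AP-1 genes, 8 rose in adenoma and 0 fell at an adjusted p below 0.05 (edgeR quasi-likelihood test with Benjamini-Hochberg adjustment over all 18345 genes). Jun rose most, by 1.55 on the log2 scale, and Fosb, Maff and Atf3 rose by 1.14 to 1.44. Fosl1, Junb, Jund and Fosl2 rose by 0.34 to 0.94, while Fos and Batf were not called. Across all genes tested, 58.1% were called, with 30.3% higher and 27.8% lower. The median log2 fold change was 0.89 over the 10 genes and 0.04 over all genes tested. For 8 of the 10 genes every adenoma lay above every wild-type library, against 29.3% of all genes (27.6% had every adenoma below, 56.9% in all were apart). A test against a factor of 2 called Jun alone of the 10 (adjusted p = 0.0128), where 5.66% of all genes were called higher and 7.52% lower.

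The count of 8 rested on both the libraries and the scaling. Without wild type 2, which had the lowest value of the 3 wild-type libraries for 9 of the 10 genes, 5 were called, and 49.1% of all genes tested were. The count was 8 without adenoma 2, where 67.5% of all genes were called. It was 6 without wild type 1 and adenoma 5 together, where 42.7% of all genes were. With each library scaled so that 7 epithelial markers had the same summed count, Jun and Maff remained called, the median of all genes moved from 0.04 to -0.55, and 1160 genes were higher and 7157 lower in place of 5558 and 5099. Of those 7 markers 4 themselves rose under the usual scaling (Krt18 from 163 to 949 CPM). With the male or female pattern as a covariate, 3 of the 10 were called against 29.3% of all genes (3074 higher and 2298 lower), and that comparison sets adenoma 1 alone against wild type because the female pattern was seen in adenomas alone.

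**Figure D1:**
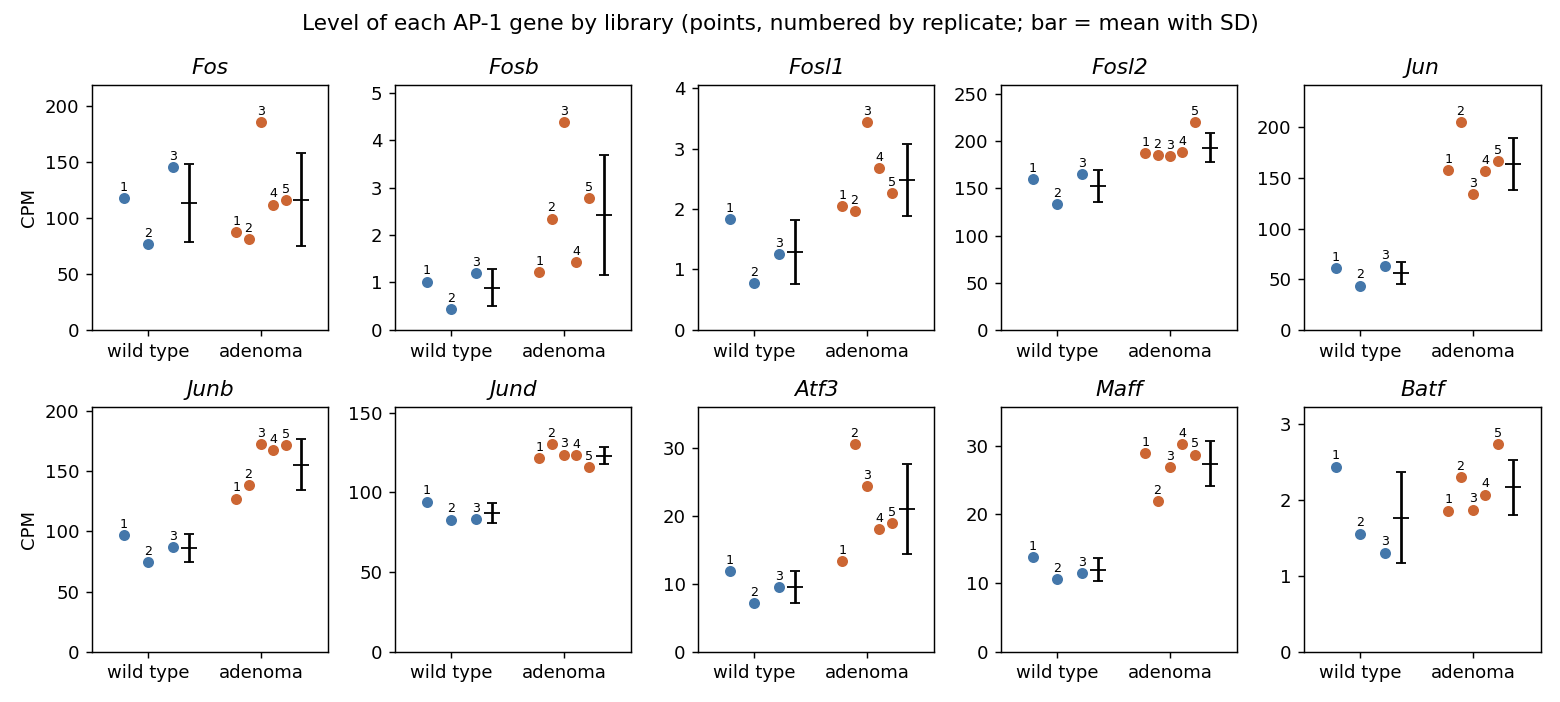
CPM of each of the 10 AP-1 genes in the 3 wild-type and 5 adenoma libraries, with points numbered by replicate and a bar for the mean with its SD. The groups are apart in 8 panels and overlap for Fos and Batf, and adenoma 3 is the highest adenoma for Fos, Fosb, Fosl1 and Junb.

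Sequences just before the start sites show which letters the AP-1 genes themselves carry. RefSeq windows (GRCm38.p6) were found for 9 of the 10 genes, at 11 start sites, 3 of them of Maff, and Fosl1 was not matched. The 250 bases before the start are printed for 4 genes that cover the range of change, namely Jun and Maff with small adjusted p-values, the variable Atf3, and Fos, which was not called. Capitals mark TGACG (the first part of TGACGTCA), TGACGTCA and TGACATCA on either strand, and all sequences run 5′ to 3′ along the gene. The Jun window is chr4:95052223-95052472 on the minus strand, that of Maff chr15:79347270-79347519 on the plus strand, that of Atf3 chr1:191183334-191183583 on the minus strand, and that of Fos chr12:85473640-85473889 on the plus strand.
Jun: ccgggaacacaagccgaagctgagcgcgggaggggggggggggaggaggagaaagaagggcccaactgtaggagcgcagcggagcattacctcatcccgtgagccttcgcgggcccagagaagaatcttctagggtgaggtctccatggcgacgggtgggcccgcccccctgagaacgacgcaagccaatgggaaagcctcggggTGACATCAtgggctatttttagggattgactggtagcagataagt
Maff, second start: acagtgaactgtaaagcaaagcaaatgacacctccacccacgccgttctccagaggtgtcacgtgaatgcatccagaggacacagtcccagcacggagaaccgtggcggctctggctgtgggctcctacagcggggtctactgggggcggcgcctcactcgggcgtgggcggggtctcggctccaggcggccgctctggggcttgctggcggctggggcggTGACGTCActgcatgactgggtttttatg
Atf3: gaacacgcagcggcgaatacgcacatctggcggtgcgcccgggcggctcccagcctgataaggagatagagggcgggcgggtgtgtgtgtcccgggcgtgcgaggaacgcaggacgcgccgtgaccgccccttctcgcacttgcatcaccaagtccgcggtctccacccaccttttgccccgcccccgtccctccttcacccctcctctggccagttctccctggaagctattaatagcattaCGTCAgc
Fos: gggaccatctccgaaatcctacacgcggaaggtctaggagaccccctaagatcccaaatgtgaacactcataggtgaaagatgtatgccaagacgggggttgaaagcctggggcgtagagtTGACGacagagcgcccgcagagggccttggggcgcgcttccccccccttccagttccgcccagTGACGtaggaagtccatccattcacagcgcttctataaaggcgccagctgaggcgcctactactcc

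In these windows TGACATCA began 45 bases before the Jun start, TGACGTCA 29 bases before the second Maff start, and TGACG 129 and 66 bases before the Fos start. In Atf3 the match lay on the other strand, 7 bases before the start. Counting all 11 windows on both strands, TGACG was in 7, against 17.8% of 32851 windows of the same length upstream of all RefSeq starts. TGACGTCA, which contains TGACG, was in 1 window against 1.55% of all, and TGACATCA in 2 against 2.93%. TGACTCA was in 0 of the 11 and in 4.46% of all windows, and the CArG box, the core of the serum response element, was in 0 and in 1.47%. The windows of Fosb, Junb and Batf each had 1 TGACG, and those of Fosl2 and Jund had no match. The window of the first Maff start, at 79346621 where the annotated gene begins, had no match either. At the third Maff start, TGACG began 122 and TGACATCA 45 bases before it. The RefSeq start used for Jund, at 70697739 on chromosome 8, lies upstream of the annotated gene, which begins at 70698949. Its window therefore does not show the bases just before the gene that was counted. The Atf3 start used, at 191183333 on the minus strand of chromosome 1, lies inside the annotated gene, which begins at 191218039. The Fosl2 start, at 32136472, also lies inside its gene, which begins at 32135801, as does the second Maff start, at 79347520. Those windows too do not show the bases before the annotated gene. The called and the uncalled genes did not divide by such a match. These are letter matches in a window of 250 bases, with no measurement of binding. Sites farther upstream were not searched, so a count of 0 does not mean that a gene lacks the motif.

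Among the Jun family, Jun, the founding partner of the family and the one with the strongest activating domain, stood at 61.2, 43.6 and 63.3 CPM in wild type 1 to 3. In adenomas 1 to 5 Jun stood at 158, 205.0, 134, 157 and 167 CPM. Adenoma 2 was the highest and adenoma 3 the lowest, and even adenoma 3 lay more than 2 times above each wild-type library. The means were 56.1 ± 10.8 CPM (SD, n = 3) and 164 ± 25.9 CPM (n = 5), which is a log2 change of 1.55 ± 0.17 (adjusted p = 1.63e-04 by edgeR) with a 95% interval of 1.15 to 1.95. The call held in every alternative tried, at 1.02 (adjusted p = 0.0244) with epithelial scaling. Jun lies on chromosome 4 (GRCm38, 95049034 to 95052222, minus strand, ENSMUSG00000052684) and shares 232 exon bases with the antisense gene Junos. Reads of the 2 strands cannot be told apart in this unstranded library type, and Junos had 12 to 87 counts per library against 784 to 4930 for Jun.

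Junb, which often restrains Jun and cell division, stood at 97.1, 74.5 and 86.8 CPM in wild type and at 127, 138, 173, 167 and 171 CPM in adenomas 1 to 5. Adenomas 3, 4 and 5 were close together and adenomas 1 and 2 lower, with the groups apart. Junb rose from 86.1 ± 11.3 to 155 ± 21.1 CPM, which is a log2 change of 0.85 ± 0.14 (adjusted p = 0.00113 by edgeR). That call ended with epithelial scaling (0.25, adjusted p = 0.359) and with the male or female pattern as a covariate (0.56, adjusted p = 0.0595). Jund was the least variable of the 10 genes, at 94.1, 82.9 and 83.3 CPM in wild type and 122, 130.2, 124, 124 and 116 CPM in adenoma. It rose from 86.8 ± 6.35 to 123 ± 5.15 CPM, which is a log2 change of 0.50 ± 0.08 (adjusted p = 0.00103), and the sign turned to -0.074 with epithelial scaling, where the median of all genes was -0.55. Over the 5 adenomas its highest value was 1.12 times its lowest, and 4.59% of the 12395 genes at 5 CPM or more had a smaller SD of log2 CPM. Junb (chromosome 8, 84974484 to 84978718, minus strand) shares 173 exon bases with Prdx2, which also rose, from 96.3 ± 6.75 to 182 ± 17.2 CPM. Jund (chromosome 8, 70698949 to 70700616, plus strand) shares 877 of its 1668 exon bases with Gm11175 on the other strand, which had 0 counts in all 8 libraries. How reads in those shared bases were counted is not known, so the Jund counts are uncertain.

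Among the Fos family, Fos showed no difference beyond its spread. Its values were 118, 76.9 and 145.8 CPM in wild type and 87.5, 81.4, 186, 112 and 116 CPM in adenomas 1 to 5. The groups overlapped throughout, with adenoma 3 above all other libraries and wild type 2 below them. Means were 114 ± 34.7 and 117 ± 41.5 CPM, and the log2 fold change of 0.04 ± 0.30 (adjusted p = 0.920 by edgeR) had a 95% interval of -0.65 to 0.72, so neither a fall nor a rise was detectable. Its sign turned in 9 of the alternatives, down to -0.61 with epithelial scaling. Fos lies on chromosome 12 at 85473890 to 85477273, on the plus strand (ENSMUSG00000021250).

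Fosb, whose protein is closely related to Fos, was scarce, at 20, 8 and 22 counts in wild type and 26, 50, 98, 33 and 82 counts in adenoma. In CPM these were 1.02, 0.445 and 1.20 against 1.21, 2.35, 4.37, 1.43 and 2.77. Adenoma 1 lay just above wild type 3, and adenoma 3 was the highest. Fosb rose from 0.887 ± 0.393 to 2.42 ± 1.26 CPM, which is a log2 change of 1.44 ± 0.50 (adjusted p = 0.0346 by edgeR). The call was lost when any 1 of wild type 1, 2 and 3 and adenomas 3 and 5 was left out, at adjusted p from 0.0525 to 0.113, and with limma-voom (0.0599). The value of Fosb moved most with the male or female pattern as a covariate, to 0.44 (adjusted p = 0.643), and it was 0.85 (adjusted p = 0.209) with epithelial scaling. Fosb lies on chromosome 7 at 19302696 to 19310051, minus strand.

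Fosl1, which encodes Fra-1, a Fos protein tied to invasion in many carcinomas, also had few reads, at 36, 14 and 23 counts in wild type and 44, 42, 77, 62 and 67 in adenoma. The values in CPM were 1.83, 0.779 and 1.25 against 2.05, 1.97, 3.44, 2.68 and 2.27, and adenomas 1 and 2 lay close to wild type 1. Its mean went from 1.29 ± 0.527 to 2.48 ± 0.601 CPM, which is a log2 change of 0.94 ± 0.32 (adjusted p = 0.0314 by edgeR). Leaving out wild type 2, wild type 3, adenoma 3 or adenoma 4 ended this call, at adjusted p of 0.103, 0.0894, 0.0623 and 0.0603. Fosl1 was at 0.32 (adjusted p = 0.490) with epithelial scaling and at 0.66 (adjusted p = 0.325) with the male or female pattern as a covariate. Fosl1 (chromosome 19, 5447547 to 5455946, plus strand) shares 1163 of its 2033 exon bases with Ccdc85b on the other strand, which rose as well, from 5.17 ± 0.830 to 10.2 ± 1.82 CPM, so its counts are uncertain.

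Fosl2, which encodes Fra-2, a Fos protein induced later than Fos, stood at 159.5, 133 and 165 CPM in wild type and at 187, 185, 184, 189 and 219.95 CPM in adenoma. Adenomas 1 to 4 were nearly equal and adenoma 5 was above them, and all lay above wild type. Fosl2 rose from 153 ± 16.9 to 193 ± 15.2 CPM, which is a log2 change of 0.34 ± 0.11 (adjusted p = 0.0263 by edgeR), the smallest called change of the 10. Without wild type 2 or without adenoma 5 the call was lost (adjusted p = 0.0994 and 0.0586), as it was with the male or female pattern (0.244), the 5 CPM filter (0.0918) and upper-quartile scaling (0.0620), and its sign turned to -0.24 with epithelial scaling. It lies on chromosome 5 at 32135801 to 32157842, plus strand.

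Atf3, a stress-induced partner of Jun that usually represses, stood at 11.9, 7.18 and 9.54 CPM in wild type and at 13.3, 30.6, 24.4, 18.1 and 19.0 CPM in adenomas 1 to 5. Adenoma 1 was only just above wild type 1, and adenoma 2 was 2.30 times as high as adenoma 1. Atf3 rose from 9.52 ± 2.34 to 21.1 ± 6.63 CPM, which is a log2 change of 1.14 ± 0.28 (adjusted p = 0.00791 by edgeR). With the male or female pattern as a covariate, where adenoma 1 alone stands against wild type, it was 0.48 (adjusted p = 0.315). Epithelial scaling also ended the call (0.64, adjusted p = 0.221).

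Maff, the small Maf protein, stood at 13.8, 10.5 and 11.4 CPM in wild type and at 29.0, 21.9, 26.9, 30.2 and 28.7 CPM in adenoma. Adenoma 2 was the lowest adenoma and still well above wild type 1, the highest of its group. Maff rose from 11.9 ± 1.68 to 27.3 ± 3.26 CPM, which is a log2 change of 1.20 ± 0.14 (adjusted p = 2.00e-04 by edgeR), and it was called in every alternative other than the test against a factor of 2 (adjusted p = 0.152). Batf, with 24 to 81 counts per library, stood at 2.44, 1.56 and 1.31 CPM in wild type and at 1.86, 2.30, 1.87, 2.07 and 2.74 CPM in adenoma. The groups overlapped, and the log2 fold change of 0.29 ± 0.26 (adjusted p = 0.352) had a 95% interval of -0.29 to 0.88. Summed T and B cell markers were at 145 to 293 CPM in wild type and 52.3 to 72.7 CPM in adenoma, with 6 of 8 lower, and their part in the Batf values was not tested. Atf3 lies on chromosome 1 (191170296 to 191218039, minus strand), Maff on 15 (79346621 to 79359076, plus) and Batf on 12 (85686669 to 85709087, plus).

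**Figure D2:**
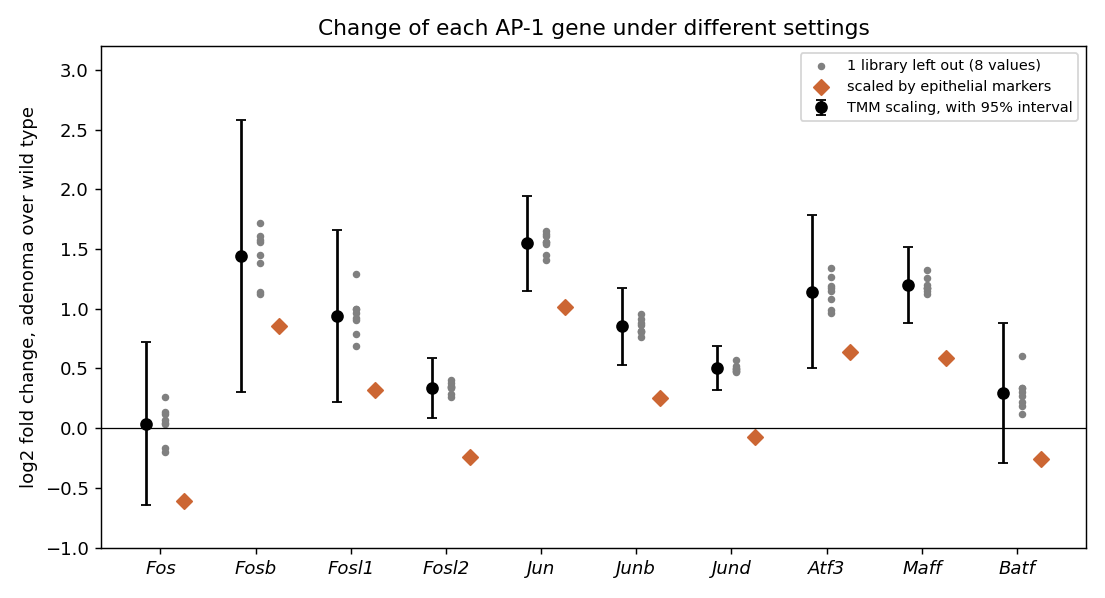
Log2 fold change of each AP-1 gene, adenoma over wild type, with its 95% interval (black), the 8 values with 1 library left out (grey) and the value with epithelial scaling (orange). Jun, Fosb, Atf3, Maff, Junb and Fosl1 stay above 0 in all of these values, Jund and Fosl2 turn below 0 with epithelial scaling, and Fos and Batf have intervals that span 0.

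Divided by annotated exon length, the 10 genes covered a wide range of levels in both groups, with Jund highest and Fosb lowest in each. That length includes bases shared with genes on the other strand, among them 877 of 1668 in Jund and 1163 of 2033 in Fosl1. How reads in shared bases were counted is not known. The levels per kb of Jund and Fosl1, and the ranks, shares and sums that use them, are therefore uncertain. In wild type, Jund led at 52.0 ± 3.80 CPM per kb, followed by Fos at 48.3 ± 14.8, Junb at 37.4 ± 4.93, Jun at 17.6 ± 3.38 and Fosl2 at 15.8 ± 1.74 CPM per kb. Maff, Atf3, Batf, Fosl1 and Fosb followed, from 4.59 down to 0.142 CPM per kb. The libraries of Jund and Fos overlapped, as did those of Fos and Junb, of Jun and Fosl2 and of Maff and Atf3, so neighbours in those pairs have no clear order. In adenoma the order was Jund at 73.7 ± 3.09, Junb at 67.5 ± 9.17, Jun at 51.4 ± 8.13, Fos at 49.6 ± 17.6 and Fosl2 at 19.9 ± 1.57 CPM per kb. There, Jund overlapped with Junb, Junb with Jun and Jun with Fos, as did Maff with Atf3 and Batf with Fosl1, whereas Fos and Fosl2 were apart.

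Jun took a larger share of the summed level in each adenoma than in any wild-type library. The 10 genes together gave 151 to 198 CPM per kb in wild type and 254 to 314 in adenoma. Jun made up 9.05% to 10.1% of that sum in wild type and 13.3% to 22.8% in adenoma, without overlap. The Fos share was 21.6% to 31.5% and 12.3% to 25.1%, with adenoma 3 alone inside the wild-type range. The level of Jun per kb was 0.320 to 0.419 times that of Fos in wild type and 0.531 to 1.86 times in adenoma. These shares describe RNA only and were not tested, since the genes were chosen with earlier results known.

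**Figure D3:**
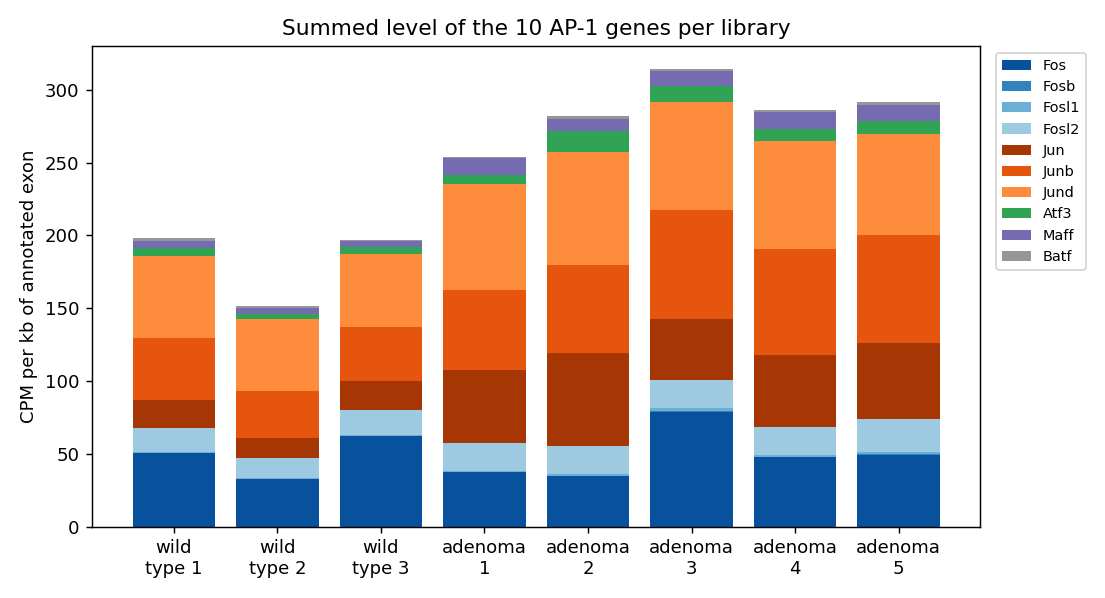
Summed level of the 10 AP-1 genes in each library in CPM per kb of annotated exon, stacked by gene, with Fos family genes in blue and Jun family genes in orange and brown. The sum is 151 to 198 in wild type and 254 to 314 in adenoma, and the Jun segment is wider in each adenoma than in any wild-type library.

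No single adenoma was highest for all AP-1 genes. Adenoma 3 was the highest adenoma for Fos, Fosb, Fosl1 and Junb, and the lowest for Jun and Fosl2. Adenoma 2 was the highest for Jun, Jund and Atf3 and the lowest for Fos, Fosl1 and Maff. Fosb, Fos and Atf3 varied most, their highest adenoma being 3.61, 2.28 and 2.30 times the lowest. Once the group means were removed, the genes most like Fos over the 8 libraries were Map7 (Pearson r = 0.97, Spearman rho = 0.95), Ctdsp1 (0.97 and 0.98) and Errfi1 (0.97 and 0.95), of 11653 genes compared. Errfi1, a feedback inhibitor of the EGF receptor, stood at 54.5 to 90.4 CPM in wild type and 92.5 to 144 CPM in adenoma. Those most like Fosl1 were Faim (r = 0.99, rho = 1), Rbm3 (0.98 and 1) and Rmc1 (0.97 and 0.98). The best of so many genes over 8 libraries that share their depth and scaling give high values, so these are a description only.

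Of 27 other immediate-early genes tested, 16 were higher and 2 lower, 66.7% called against 58.1% of all genes (30.3% higher and 27.8% lower), with the median log2 change at 0.58 against 0.04 for all genes, and with epithelial scaling 4 were higher and 5 lower. Ier3, an early gene linked to survival under stress, rose from 6.07 ± 0.817 to 56.7 ± 15.2 CPM, which is a log2 change of 3.22 ± 0.26. Ccn1, a matrix protein also induced by YAP, rose from 6.16 ± 1.91 to 28.9 ± 7.05 CPM, and Ier2 from 20.1 ± 1.31 to 42.2 ± 3.28 CPM. Zfp36, which encodes an RNA-binding protein that speeds the decay of AU-rich messages, Fos among them, fell from 47.5 ± 5.55 to 18.0 ± 2.00 CPM, which is a log2 change of -1.40 ± 0.12 (adjusted p = 4.21e-05 by edgeR). Egr1, picked after its values were seen as the gene most often read beside Fos, was at 7.34 CPM in wild type and at 7.77 CPM in adenomas (adjusted p = 0.890). Klf4, a factor of mature epithelium and the other lower gene, was also named after its values were seen (log2 fold change -0.61, adjusted p = 0.0422), and its call was lost when any 1 library other than adenoma 2 was left out, at adjusted p from 0.0582 to 0.135. Tissue handling can induce some heat shock genes together with early genes. A list of 6 such genes summed to 402 to 487 CPM among wild-type libraries and 540.1 to 737 CPM among adenomas, with 4 higher and 1 lower. Hspa8 was the largest part of each sum, running from 305 to 350 CPM over wild type and from 430 to 615 CPM over adenomas. Hspb1, Hspa1b and Dnajb1 also rose, Hsph1 fell and Hspa1a was not called (log2 change 0.43, adjusted p = 0.164, edgeR). The sums thus mainly follow Hspa8, and the part of handling in the early-gene values was not tested.

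Textbook AP-1 target genes were mostly higher. Of 26 tested, 22 were higher and 1 lower, 88.5% called against 58.1% of all genes (30.3% higher and 27.8% lower). In the test against a factor of 2, 16 were higher, where 5.66% of all genes were. Their median log2 fold change was 2.40 against 0.04 for all genes. With epithelial scaling 16 were still higher, where 1160 of 18345 genes were. Krt18 is in this list and also among the markers used for that scaling. The list was chosen with earlier results of these data known. Timp1, an inhibitor of matrix proteases, rose from 0.870 ± 0.178 to 13.7 ± 3.63 CPM, which is a log2 change of 3.96 ± 0.30 (adjusted p = 2.84e-05 by edgeR). The urokinase receptor gene Plaur stood at 5.01 to 5.34 CPM in wild type and 27.0 to 51.1 CPM in adenoma. Mmp10, a matrix metalloproteinase, rose from 37.2 ± 3.02 to 235.0 ± 57.1 CPM, and Ptgs2, the inducible cyclooxygenase, from 4.30 ± 0.452 to 43.2 ± 14.0 CPM. Ezr, which links the brush border membrane to actin, was the lower member, falling from 764 ± 87.9 to 380.4 ± 42.1 CPM. Many of these genes are also made by stroma and leukocytes. Fibroblast markers summed to 1081 to 1443 CPM in wild type and 2666 to 3366 CPM in adenoma, with 5 of 6 higher, and endothelial markers to 122 to 131 and 206 to 227 CPM, with 3 of 4 higher. Smooth muscle markers summed to 815 to 1459 CPM in wild type and 360 to 904 CPM in adenoma, with 0 higher and 2 of 5 lower. Markers of enteric neurons and glia summed to 7.36 to 8.35 and 3.67 to 7.10 CPM, with 0 higher and 3 of 5 lower. Of 8 myeloid markers 3 were higher and 1 lower, their sum running from 153 to 171 and from 107 to 231 CPM, with S100a8 at 0 in at least 1 library. The part of these cells in the target genes, and in the AP-1 genes, was not tested.

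**Figure D4:**
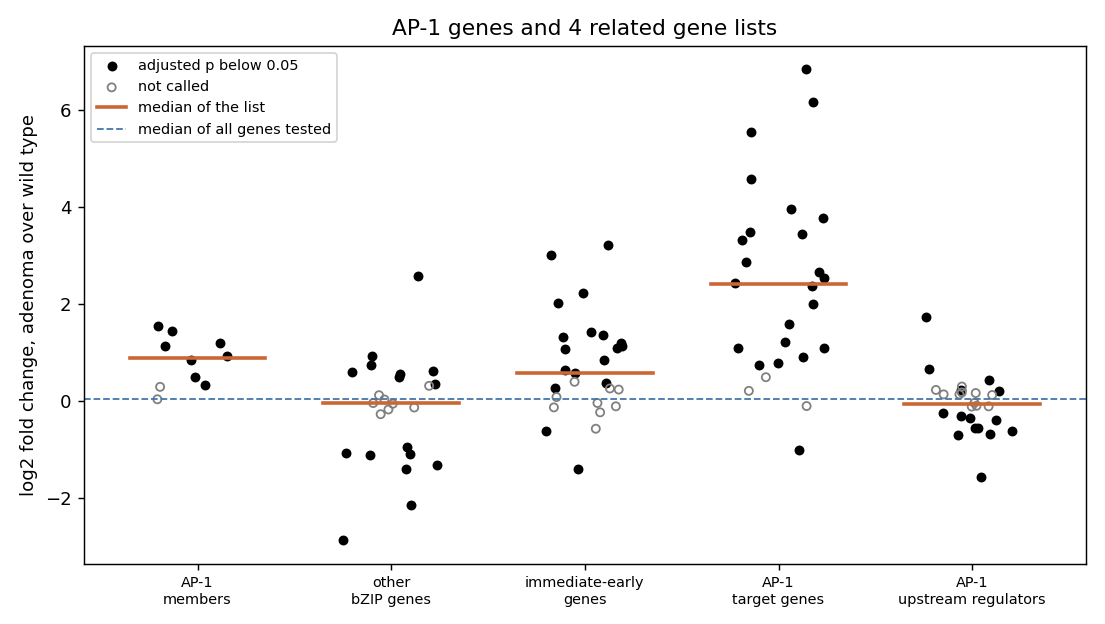
Log2 fold change, adenoma over wild type, of each tested gene of the AP-1 list and 4 related lists; filled points passed an adjusted p of 0.05, orange bars are list medians and the dashed line is the median of all genes tested. The medians are 0.89 for the AP-1 genes, -0.05 for other bZIP genes, 0.58 for immediate-early genes, 2.40 for AP-1 target genes and -0.07 for upstream regulators.

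The wider bZIP family, the proteins built on the same DNA-binding fold, went both ways. Of 24 tested, 8 were higher and 8 lower, 66.7% called against 58.1% of all genes and near the general shares in each direction (30.3% and 27.8%), with the median log2 change at -0.05, and the split was 1 higher and 13 lower with epithelial scaling. Maf, a large Maf protein that shares its DNA motif with Maff but has an activation domain, fell from 190 ± 13.1 to 25.9 ± 5.30 CPM, which is a log2 change of -2.87 ± 0.16 (adjusted p = 1.00e-05 by edgeR), opposite to Maff. Bach1 and Bach2, repressors that pair with small Maf proteins, fell from 143 ± 11.7 to 68.7 ± 4.15 CPM and from 12.8 ± 4.58 to 2.89 ± 0.504 CPM. Nfe2l3, an activator of the group that pairs with small Maf proteins, rose from 8.76 ± 2.16 to 52.4 ± 7.09 CPM, which is a log2 change of 2.58 ± 0.19. The fall of Bach2, a gene of B and T cells as well, stood beside the lower T and B cell markers given above.

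Kinases, ternary complex factors and degradation factors that act on Fos and Jun were also mixed. Of 26 tested, 5 were higher and 10 lower, 57.7% called against 58.1% of all genes, and the split was 1 and 14 with epithelial scaling, 6 and 7 with total-count scaling and 3 and 11 with upper-quartile scaling. Elk3, a ternary complex factor that can repress Fos, rose from 11.1 ± 0.557 to 37.1 ± 2.47 CPM, which is a log2 change of 1.73 ± 0.10 (adjusted p = 9.58e-06 by edgeR). Itch, a ubiquitin ligase for Jun and Junb, fell to 131 ± 10.6 CPM in adenoma. Gsk3b, a kinase that marks Jun for degradation and also acts on beta-catenin, fell from 120.0 ± 11.4 to 73.6 ± 11.2 CPM. Mapk8, which encodes the Jun kinase JNK1, fell from 75.1 ± 6.93 to 46.7 ± 6.74 CPM, which is a log2 change of -0.69 ± 0.13. RNA levels do not measure the activity of these enzymes. The 5 calls higher in this list went to 2 without wild type 3, without adenoma 1 or without adenoma 4, and to 3 without wild type 2 or without adenoma 3.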

How the data were processed

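RNA of 8 libraries was made into TruSeq RNA v2 libraries and read as paired ends of 36 cycles, per the labels' protocols. The authors deposited raw counts per gene, made with TopHat2 and HTSeq on GRCm38 after FastQC, per the submitters' processing notes. Their versions, the annotation release and the strand setting are not given there. Symbols, positions and exon lengths came from GENCODE M21 (37607 of 39179 identifiers matched). Genes were filtered with filterByExpr (18345 kept), scaled by TMM and tested with robust quasi-likelihood fits of edgeR 4.0.16 in R 4.3.3, tested on simulated data, with Benjamini-Hochberg adjustment and a threshold of 0.05. CPM values use the TMM library sizes, a log2 CPM has a prior count of 2, and an SE is the log2 fold change over the square root of F. The common biological coefficient of variation was 0.28. All pairs of libraries within a group differed by more than sampling noise (chi-square per degree of freedom 20.1 to 149). DESeq2 1.42.0 and limma-voom 3.58.1 were alternatives. The members and lists were chosen with earlier results of these data known. Named genes were the 10 members, Apc, the 4 genes with the smallest adjusted p of each further list plus the leading called gene of the rarer direction, and the 3 genes (mean 5 CPM or more) most like Fos and like Fosl1.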

Additional observations from a re-analysis of the deposited data

Results flagged for a closer look

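Among the 5 adenomas, Fosl2 in adenoma 5 stood apart at 219.95 CPM, against 184 to 189 CPM in the other 4, by Dixon's test at the 95% level, with a gap of 0.874 of the whole range. Chance gives a gap above the critical value of 0.71 in about 1 in 20 groups, and 30 such groups of values were examined. Without adenoma 5 the log2 fold change of Fosl2 was 0.28 (adjusted p = 0.0586, edgeR). Adenoma 5 also held pancreatic RNA and had the highest total count, and the part of either in this value was not tested.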

How the results depend on the processing

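Alternatives were other scalings, filters and tests, leaving out libraries, and the replicate number as a block. Counts of calls are given as higher and lower in adenoma, beside 8 and 0 for the AP-1 genes, 8 and 8 for other bZIP genes, 16 and 2 for immediate-early genes, 22 and 1 for target genes and 5 and 10 for upstream regulators. Epithelial scaling gave 2 AP-1 genes higher, 1 and 13, 4 and 5, 2 target genes lower and 1 upstream regulator higher. The male or female pattern as a covariate gave 3 AP-1 genes, 3 bZIP genes higher, 7 and 1 immediate-early genes, and 1 and 2 upstream regulators. The test against a factor of 2 gave 1 AP-1 gene, 1 and 2, 4 and 1, 0 target genes lower, and 1 and 0. A filter of 5 CPM in 3 libraries tested 7 AP-1 genes and called 5, and called 2 upstream regulators higher. Without wild type 1 and adenoma 5 there were 5 bZIP genes higher, 1 immediate-early gene lower, and 3 and 6 upstream regulators. Upper-quartile scaling gave 3 upstream regulators higher, and total-count scaling and no filter each gave 1 immediate-early gene lower. Same-numbered libraries did not visibly deviate together (r = -0.018, 0.051 and 0.061), and pairs of unlike number ran from -0.13 to 0.14. No pairing by number was seen, but so few pairs cannot settle whether there is any. With the replicate block over the 6 libraries numbered 1 to 3, there were 4 AP-1 genes, 3 bZIP genes higher, 10 and 1 immediate-early genes, and 2 and 4 upstream regulators. The same 6 libraries without the block, added after seeing the data, gave 5, 1 immediate-early gene lower, and 2 and 5 upstream regulators. Of all genes tested, 36.3% were called with the block and 44% without it. The share was 45.3% with epithelial scaling, 13.2% in the test against a factor of 2 and 59.3% with the 5 CPM filter. It was 42.7% without wild type 1 and adenoma 5, 57% with upper-quartile scaling, 57.1% with total-count scaling and 38.6% with no filter. Leaving out 1 library gave 5 to 8 AP-1 genes higher and 0 lower, 8 and 8 to 9 bZIP genes, 13 to 16 and 1 to 2 immediate-early genes, 18 to 22 and 1 target genes, and 2 to 6 and 7 to 10 upstream regulators. The log2 fold change of Fos turned to -0.00020 with RLE scaling, -0.048 with upper-quartile scaling, -0.61 with epithelial scaling, -0.077 with the 5 CPM filter, -0.0029 with the replicate block, -0.17 without wild type 2, -0.20 without adenoma 3, -0.38 with the sex pattern and -0.00021 with DESeq2. With epithelial scaling Fosl2 turned to -0.24, Jund to -0.074, Batf to -0.26 and Egr1 to -0.47. Egr1 also turned to -0.019 with the 5 CPM filter, -0.34 without wild type 1, -0.064 without adenoma 2, -0.020 without adenoma 3, -0.35 without wild type 1 and adenoma 5 and -0.57 with the sex pattern. With 1 library left out Fos ranged up to 0.26 and Egr1 up to 0.65. Without adenoma 2 more genes were called overall (67.5%, against 58.1% with all 8 libraries), and without any other 1 library fewer were (46.4% to 54.4%). The cause of these changes was not tested. Fosb, Fosl1 and Batf had only 8 to 98 counts per library.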

Other observations

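Some genes outside the rule for named genes, chosen after their values were seen, add to the picture of AP-1 partners. Batf2 and Batf3, relatives of Batf, fell from 18.7 ± 5.50 to 7.11 ± 1.14 CPM and from 2.31 ± 0.249 to 1.08 ± 0.170 CPM (edgeR adjusted p = 6.33e-04 and 0.00204), where Batf was not called. Mafg, a small Maf protein like Maff, rose from 52.1 ± 4.52 to 99.4 ± 10.9 CPM. Jdp2, a repressor that pairs with Jun, rose from 5.07 ± 0.649 to 8.46 ± 1.45 CPM. Of the target genes, Il11, a cytokine of stroma, rose from 0.217 ± 0.102 to 15.9 ± 8.60 CPM.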
